A study of Mus musculus with 9 samples.

Results

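A set of 10 cytokine genes was followed by RNA-seq in 4T1, a metastatic line derived from a mouse breast tumour. They were Tslp, Il33, Il1a, Il1b, Il1rn, Il6, Lif, Csf1, Csf2 and Csf3, 10 of the 24421 genes in the count table, and they had been chosen from earlier results of these same libraries. Their levels and changes are therefore a description. Where one of them is said to have passed a threshold, this reports its place in the fit across all genes and is not independent evidence. The data held 9 libraries in 3 groups of 3. Cells were grown for 5 days in 3D on a soft-agar base without added palmitate, in 3D with 75 µM palmitate, or as 2D monolayers with 75 µM palmitate. The medium of all groups held 10% fetal bovine serum, which itself carries fatty acids. The added palmitate was coupled to bovine serum albumin, and cultures without it received albumin and ethanol. A 2D culture without palmitate was not analysed here. The comparison of 3D with 2D was therefore made only with palmitate present, and the comparison of palmitate with its absence only in 3D. Both comparisons used the same 3 libraries of 3D cultures with palmitate. All libraries came from 1 cell line, and the labels do not say that the replicates were separate cultures, so p-values measured the spread between these libraries. The study's methods speak of biological replicates in general.

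Total counts per library ran from 6595514, in replicate 3 of 3D with palmitate, to 31177756, and 1 count was worth between 0.0320 and 0.153 CPM (counts scaled to the normalized library size). Replicate libraries differed from each other by more than sampling noise, and most in 3D with palmitate, the group used in both comparisons: the chi-square value per gene between replicates was 16.4 to 19.7 there, 4.84 to 7.37 in 3D without palmitate and 3.89 to 9.30 in 2D. All 7 epithelial markers were abundant, with summed levels of 4551 to 4754 CPM in 3D with palmitate, 4644 to 4666 CPM in 3D without and 3403 to 3654 CPM in 2D. Among 10 leukocyte markers, Adgre1 and Cd3e had 0 counts in every library, 8 never reached 10 counts and Ptprc peaked at 11 counts. The exception was Cd68, a lysosomal protein, at 6.18 to 27.8 CPM, which was lower in 3D than in 2D (log2 fold change −1.39). The summed leukocyte list was 8.88 to 11.7 CPM in 3D with palmitate, 7.54 to 9.50 CPM in 3D without and 24.6 to 28.3 CPM in 2D. The fibroblast list summed to 92.7 to 111 CPM in 3D with palmitate, 91.6 to 107 CPM in 3D without and 29.7 to 31.3 CPM in 2D, mostly Pdgfra (29.5 to 110 CPM), with Col6a3 at up to 1.80 CPM and Lum at 0. All 4 endothelial markers stayed under 10 counts, and the summed list was at most 0.579 CPM in any group. In bulk RNA, fewer cells of a kind and less RNA per cell cannot be told apart.

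The 10 genes encode signals by which epithelial and tumour cells act on immune and stromal cells. TSLP and IL-33 are alarmins of barrier epithelia that act on dendritic cells, innate lymphoid cells and mast cells. IL-1α and IL-1β bind the same receptor, and the IL-1 receptor antagonist, encoded by Il1rn, blocks it. IL-6 and LIF signal through the shared chain gp130. M-CSF (Csf1), GM-CSF (Csf2) and G-CSF (Csf3) direct the growth of macrophages and granulocytes, and 4T1 tumours are known for the neutrophil expansion that they cause in mice. Transcription of several of these genes is known to be driven by NF-κB and AP-1 factors, which bind κB and AP-1 motifs, and their mRNAs are short-lived.

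Promoter windows from RefSeq (GRCm38.p6) were examined for 8 of the 10 genes. The promoters of Tslp and Csf3 were not examined, so the counts below leave both genes out. The 11 windows of the 8 genes run from 250 bases before to 50 bases after an annotated start. They were searched on both strands for a long κB form (GGGNNTTTCC), a short κB form (GGGNNTTCC) and an AP-1 form (TGANTCA), where N is any base. The long κB form stood in windows of 3 of the 8 genes, Csf1, Il6 and Il1rn, against 1.89% of the 27025 genes in the RefSeq table. In Il1rn it stood only in windows 2 and 3, which overlap, so 2 of the 8 genes held it in their first window. The share of all genes likewise counts any window of a gene. AP-1 stood in windows of 4 genes, Il1a, Il1rn, Il6 and Lif, against 8.97%. The short κB form stood in none of them, against 6.58% of genes, and none of the 3 forms was found in the windows of Csf2, Il1b and Il33. A match of letters shows neither binding nor its absence. Windows are shown for 4 genes that held a match in their first window: Il1a, the gene that was higher with palmitate, Il6, which held both motifs, Lif, and Csf1, the abundant gene that was lower in 3D. Sequences are written 5′ to 3′ along the gene, with the matched letters in capitals. The Il1a window (chr2:129309923-129310222, minus strand) has the AP-1 form from base −12 relative to the start. The Il6 window (chr5:30012864-30013163, plus strand) has the AP-1 form from base −249 and the long κB form from base −44. The Lif window (chr11:4257318-4257617, plus strand) has the AP-1 form from base −228. The Csf1 window (chr3:107760420-107760719, minus strand) has the long κB form from base −154, read on the strand opposite to the gene.
Il1a: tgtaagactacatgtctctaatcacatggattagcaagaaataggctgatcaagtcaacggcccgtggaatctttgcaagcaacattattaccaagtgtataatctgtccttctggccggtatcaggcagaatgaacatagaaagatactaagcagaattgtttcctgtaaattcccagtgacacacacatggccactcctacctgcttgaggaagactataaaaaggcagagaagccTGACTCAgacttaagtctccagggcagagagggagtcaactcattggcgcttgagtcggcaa
Il6: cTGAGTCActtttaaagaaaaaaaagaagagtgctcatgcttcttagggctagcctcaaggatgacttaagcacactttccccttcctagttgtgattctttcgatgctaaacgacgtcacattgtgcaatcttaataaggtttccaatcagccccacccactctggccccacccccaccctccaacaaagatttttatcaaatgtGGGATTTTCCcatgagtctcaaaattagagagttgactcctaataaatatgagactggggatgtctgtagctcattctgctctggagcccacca
Lif: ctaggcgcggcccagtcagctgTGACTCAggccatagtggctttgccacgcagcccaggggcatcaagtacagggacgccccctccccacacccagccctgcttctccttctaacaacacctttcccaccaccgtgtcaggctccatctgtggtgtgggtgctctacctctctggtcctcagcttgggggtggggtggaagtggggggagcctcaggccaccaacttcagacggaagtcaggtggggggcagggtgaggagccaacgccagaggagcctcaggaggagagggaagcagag
Csf1: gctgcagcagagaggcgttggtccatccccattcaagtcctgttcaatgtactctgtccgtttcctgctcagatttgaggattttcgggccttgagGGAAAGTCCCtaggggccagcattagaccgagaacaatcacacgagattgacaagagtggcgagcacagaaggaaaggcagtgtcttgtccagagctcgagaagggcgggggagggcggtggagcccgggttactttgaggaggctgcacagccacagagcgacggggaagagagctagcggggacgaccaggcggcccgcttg

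Levels of the 10 genes differed widely. Of the 10, 9 passed the filter on low counts and Il1rn did not. Per kilobase of exon, Tslp ranked 17 of 12504 genes in 3D without palmitate, 28 in 3D with palmitate and 4886 in 2D. Csf3 ranked 387, 294 and 580 in the same order of groups, Il1a 1371, 727 and 1477, Csf1 1823, 1986 and 684, and Lif 2311, 2103 and 2797. The other 4 tested genes (Il33, Il1b, Il6 and Csf2) ranked between 9376 and 11875. The plot of levels by library shows the 10 genes on their own scales.

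**Figure D1:**
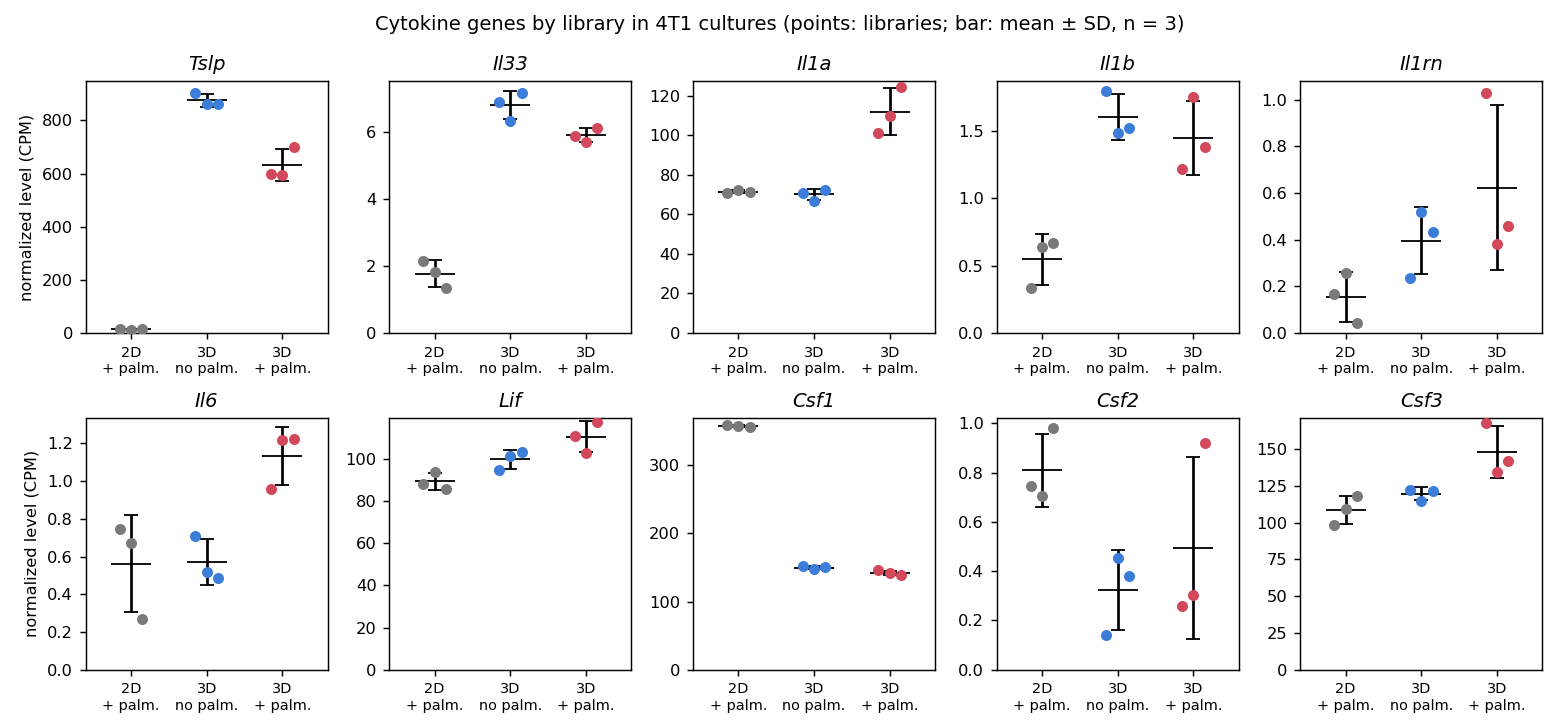
Normalized level (CPM, vertical axis from 0) of the 10 cytokine genes in each library of the 3 culture groups, one panel per gene; points are libraries and bars are mean ± SD (n = 3). Tslp is near the axis in 2D (13.20 to 14.97 CPM) and at 594 to 904 CPM in the 3D libraries, Csf1 is higher in 2D than in both 3D groups, and Il1a stands above 100 CPM only in 3D with palmitate.

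Between 3D and 2D cultures with palmitate, 9 of the 9 tested genes passed the adjusted p threshold of 0.05, 7 higher and 2 lower in 3D, and 8 of the 9 had no overlap between the 3D and 2D libraries. These counts are read against a background in which most genes changed: of 12575 genes tested, 68.3% passed, 34.5% higher and 33.9% lower in 3D, and 69.4% had libraries that did not overlap. The median log2 fold change was 0.63 over the 9 genes and 0.01 over all genes tested. Between 3D cultures with and without palmitate, 2 of the 9 passed, Il1a higher and Tslp lower. Here the background was 2.19% of genes, 1.38% higher and 0.811% lower with palmitate. Libraries of the 2 groups did not overlap for 6 of the 9 genes (Tslp, Il33 and Csf1 lower, Il1a, Il6 and Csf3 higher), against 18.6% of all genes tested. The earlier choice of the genes was made with both comparisons known, so nothing is read from these counts.

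**Figure D2:**
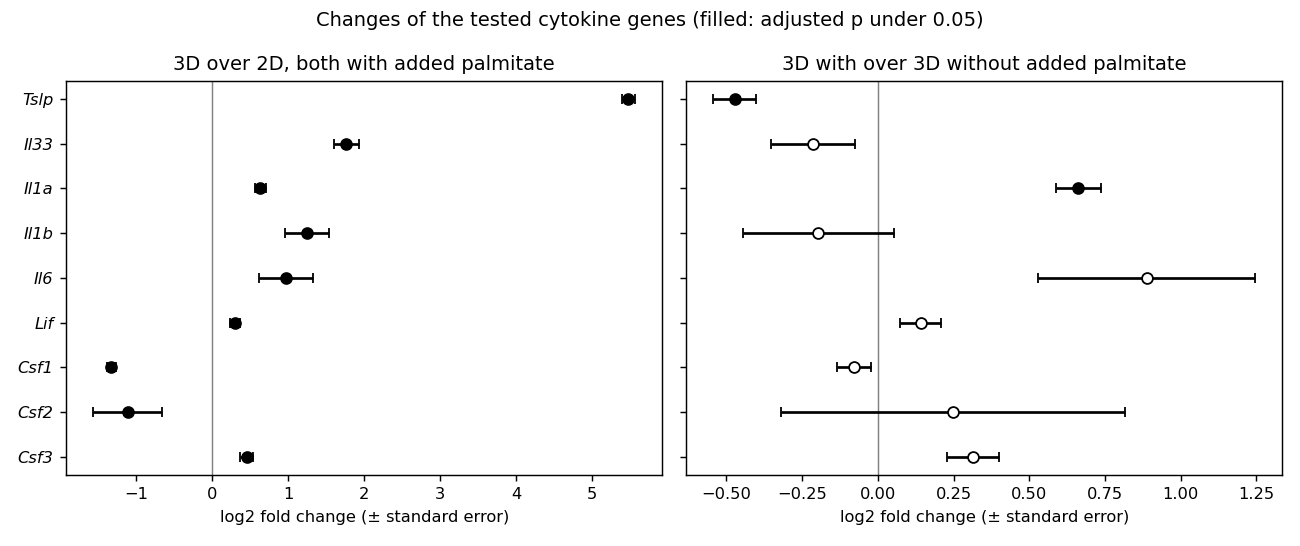
Log2 fold change (horizontal axis, ± standard error) of the 9 tested cytokine genes for 3D over 2D with palmitate (left) and for palmitate over no palmitate in 3D (right), with filled points for genes past the adjusted p threshold of 0.05. Tslp (5.48) stands far to the right in the left panel and Csf1 (−1.33) and Csf2 (−1.12) to the left of 0; in the right panel the filled points are Tslp (−0.47) and Il1a (0.66).

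Tslp, which encodes thymic stromal lymphopoietin, was the most abundant of the 10 genes in 3D. It lies on chromosome 18 (32815383 to 32819797, plus strand, GRCm38). In 3D with palmitate its libraries measured 600.2, 594 and 699.7 CPM (631 ± 59.4 CPM, SD, n = 3) for replicates 1 to 3, and in 3D without palmitate 904, 860.3 and 861 CPM (875 ± 24.7 CPM). The 2D libraries measured 14.97, 13.20 and 14.53 CPM (14.2 ± 0.922 CPM). No 3D library came near a 2D library, and all 3 libraries with palmitate were below all 3 without it. The change from 2D to 3D was 44.6-fold (log2 fold change 5.48, SE 0.0900), number 30 from the top of 12575 genes. With palmitate, Tslp fell by 0.47 on the log2 scale (SE 0.0706), a 1.39-fold lower level. Of the other cell type lists, both fibroblast markers that were tested were likewise higher in 3D than in 2D, Pdgfra by 1.69 (adjusted p = 3.27e-10 by edgeR) and Col6a3, with 1 to 38 counts per library, by 2.80 (adjusted p = 0.000118). The other 3 of the 5 never reached 10 counts. The summed epithelial list was also higher in 3D, but its genes were mixed. Of the 7, 4 were called higher and 2 lower, Cldn3 (−0.79) and Cldn4 (−0.82). The part of these lists in the level of Tslp was not tested.

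Il33, encoding the nuclear alarmin IL-33, followed the same order of groups at a far lower level, 2.05 CPM per kb in 3D with palmitate against 474 CPM per kb for Tslp. It lies on chromosome 19 (29925114 to 29960718, plus strand). Its libraries measured 5.89, 5.70 and 6.13 CPM in 3D with palmitate, 6.90, 6.33 and 7.16 CPM in 3D without, and 2.15, 1.83 and 1.34 CPM in 2D. The 3 groups did not overlap. Il33 was 3.40-fold higher in 3D than in 2D (log2 fold change 1.76, SE 0.167). The log2 difference with palmitate was −0.21 (SE 0.139) and did not pass the threshold.

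Il1a was the one tested gene of the set that passed the threshold as higher with palmitate in 3D. IL-1α is made as a precursor that is active when released from damaged cells. The gene lies on chromosome 2 (129299610 to 129309972, minus strand). Its libraries measured 101, 109.8 and 125 CPM (112 ± 11.8 CPM) in 3D with palmitate, 71.0, 66.7 and 72.5 CPM (70.1 ± 2.96 CPM) in 3D without, and 70.8, 72.2 and 71.4 CPM (71.5 ± 0.722 CPM) in 2D. The libraries of 3D with palmitate were above all others, while those of 3D without palmitate and of 2D with palmitate overlapped. The log2 fold change was 0.66 (SE 0.0745) for palmitate in 3D and 0.63 (SE 0.0743) for 3D over 2D. These values share the libraries of 3D with palmitate, as numerator in both.

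Il1b lies 54598 bases from Il1a on the same strand (129364570 to 129371139) and was far scarcer. IL-1β is the form that caspase-1 cuts to its active state, chiefly in myeloid cells. In 3D with palmitate its libraries measured 1.21, 1.75 and 1.38 CPM, from 33, 23 and 9 counts. Levels were 1.80, 1.49 and 1.52 CPM in 3D without palmitate and 0.331, 0.641 and 0.668 CPM in 2D. Every 3D library was above every 2D library (log2 fold change 1.25, SE 0.292). Libraries with and without palmitate overlapped, with a log2 difference of −0.20 (SE 0.250) that became 0.00 without replicate 1 of 3D with palmitate. Il1rn, encoding the receptor antagonist (chromosome 2, 24336853 to 24351494, plus strand), had 28, 5 and 3 counts in 3D with palmitate, 5, 8 and 8 in 3D without and 2, 8 and 1 in 2D. It was left untested because these counts were too low. Its level in 3D with palmitate (0.623 ± 0.355 CPM) rested on the 28 counts of replicate 1.

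Il6 and Lif encode the gp130 cytokines of the set. Il6 lies on chromosome 5 (30013114 to 30019981, plus strand) and was barely detected. It had 26, 16 and 8 counts in 3D with palmitate (0.957, 1.22 and 1.23 CPM), 15, 8 and 9 in 3D without (0.709, 0.517 and 0.488 CPM) and 9, 21 and 6 in 2D (0.744, 0.673 and 0.267 CPM). All libraries of 3D with palmitate were above those of the other groups, which overlapped each other. The log2 fold change was 0.97 (SE 0.351) for 3D over 2D, and its call was lost with DESeq2 (1.01), without replicate 2 of 3D with palmitate (0.89) and without replicate 3 of 2D (0.63). For palmitate in 3D it was 0.89 (SE 0.359) and did not pass the threshold.

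Lif, for leukaemia inhibitory factor, was well expressed in all groups (chromosome 11, 4257557 to 4272514, plus strand). Its libraries measured 111, 103 and 118 CPM in 3D with palmitate, 94.9, 102 and 103 CPM in 3D without, and 88.2, 93.8 and 86.0 CPM in 2D. The 3D libraries were all above the 2D libraries, and those with and without palmitate overlapped. Lif was 1.23-fold higher in 3D than in 2D (log2 fold change 0.30, SE 0.0682). With a trend on GC content and gene length removed this became 0.06 and no longer passed. That step also moved the median of all genes for 3D over 2D from 0.01 to −0.14. The same shift lies behind the other 3D over 2D values given below with the trend removed. For Lif the log2 difference with palmitate was 0.14 (SE 0.0681) and did not pass.

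Among the colony-stimulating factors, Csf1 was higher in 2D and Csf3 higher in 3D. Csf1 (chromosome 3, 107741048 to 107760469, minus strand) measured 146, 141 and 139 CPM in 3D with palmitate and 152, 147 and 150.3 CPM in 3D without. The 2D libraries stood at 359, 357 and 356 CPM, with an SD of 1.15 CPM around 357 CPM. Csf1 was 2.52-fold lower in 3D than in 2D (log2 fold change −1.33, SE 0.0562). The libraries with palmitate were all just below those without, with a log2 difference of −0.08 (SE 0.0560) that did not pass. Cd68, from the leukocyte list, moved in the same direction as Csf1 (−1.39, adjusted p = 2.41e-07 by edgeR), and the other 9 leukocyte markers, Csf1r included, had at most 11 counts in any library. The part of these markers in the level of Csf1 was not tested.

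Csf3 lies on chromosome 11 (98701263 to 98703629, plus strand) and was second to Tslp in level per length in both 3D groups, at 105 CPM per kb with palmitate and 84.6 without. Its libraries measured 168, 135 and 142 CPM in 3D with palmitate, 122, 114 and 122 CPM in 3D without, and 98.7, 109 and 118 CPM in 2D. The libraries of 3D with palmitate were above all others, and those of the other groups overlapped. Csf3 was 1.37-fold higher in 3D than in 2D (log2 fold change 0.45, SE 0.0862). For palmitate in 3D the log2 difference was 0.31 (SE 0.0861) and did not pass, although it passed under 4 of 17 alternatives: with no filter on low counts (0.29), with DESeq2 (0.31), with the GC and length trend removed (0.26) and without replicate 3 of 3D with palmitate (0.35).

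Csf2 (chromosome 11, 54247271 to 54249667, minus strand) had the fewest counts of the tested genes. It had 7, 4 and 6 counts in 3D with palmitate (0.258, 0.304 and 0.919 CPM), 3, 7 and 7 in 3D without (0.142, 0.452 and 0.380 CPM) and 9, 22 and 22 in 2D (0.744, 0.705 and 0.980 CPM). Replicate 3 of 3D with palmitate, the shallowest library, lay among the 2D libraries. The log2 fold change for 3D over 2D was −1.12 (SE 0.453), and the call was lost under 9 of 16 alternatives, with values of −0.65 to −1.26 there. For palmitate the difference was 0.25 (SE 0.568). It turned to −0.18 without replicate 3 of 3D with palmitate and to −0.16 without replicate 1 of 3D without palmitate.

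The genes closest in pattern to each of the 9 were found by Pearson's r of log2 CPM over the 9 libraries, which share the split into 3D and 2D. Tslp was most like Il1r1, the signalling IL-1 receptor (r = 0.9996), and Odf3l1 (0.9993), both lowest in 2D. Csf1 was most like Ogfrl1 (0.998) and Zfp639 (0.998), both highest in 2D. Il1a was most like Rnf185 (0.964) and Myo5c (0.963), and Csf3 most like Kdelr3 (0.973) and Rnf183 (0.955). The pairs for the others were Crispld2 and Tmem127 with Il33 (0.998 and 0.997), Trim43b and Zscan22 with Il1b (0.989 and 0.985), Mief1 and Dixdc1 with Il6 (0.928 and 0.913), Mphosph9 and Urb1 with Lif (0.960 and 0.956), and 4921507P07Rik and Olfr1372-ps1 with Csf2 (0.979 and 0.956). These values of r are given as a description, with no test.

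Neighbouring protein-coding genes were examined after the values of the 10 genes had been seen. No protein-coding gene of the table overlapped any of the 10. Wdr36, 17428 bases from Tslp, was also higher in 3D than in 2D but by far less (log2 fold change 1.12, adjusted p = 4.21e-10 by edgeR's quasi-likelihood test), and its log2 difference with palmitate was 0.00 (adjusted p = 0.989). Ckap2l, 2398 bases from Il1a, had log2 differences of 0.14 for 3D over 2D (adjusted p = 0.0973) and 0.06 for palmitate (adjusted p = 0.760). Ranbp6 near Il33 rose in 3D over 2D (0.76, adjusted p = 1.18e-06) and Ahcyl1 near Csf1 was lower (−0.78, adjusted p = 9.33e-08), each in the direction of its neighbour. P4ha2 near Csf2 was lower in 3D than in 2D (−0.68, adjusted p = 2.97e-05) and higher with palmitate (0.53, adjusted p = 0.0241). Other neighbours moved against the cytokine gene beside them in 3D over 2D. Dnajb6 (−0.34, adjusted p = 0.000274 by edgeR) and Tyms (−0.28, adjusted p = 0.00208) were lower beside Il6, and Psmd3 (−0.49, adjusted p = 3.28e-05) beside Csf3. Med24, on the other side of Csf3, was higher with it (0.42, adjusted p = 0.00075). Among cytokine genes next to the set, Il3, 15636 bases from Csf2, had 0 counts in every library, Osm, 16531 bases from Lif, had at most 1 count, and Il1f10, 43033 bases from Il1rn, had 0. A count of 0 allows up to 3 counts in a library, or 0.0961 to 0.459 CPM, counting error only.

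The receptors of these cytokines divided into those that 4T1 cells expressed and those that were at or near 0. For IL-1, both Il1r1 and its partner Il1rap were present, at 68.3 ± 4.18 and 81.1 ± 15.5 CPM in 3D with palmitate, while the decoy receptor Il1r2 had at most 5 counts in any library. For IL-6, both Il6ra and Il6st, which encodes gp130, were present (67.88 ± 2.103 and 184 ± 27.0 CPM). TSLP needs Crlf2 and Il7r. Crlf2 was present at 23.1 ± 6.15 CPM in 3D with palmitate and 10.99 ± 0.588 CPM in 2D, whereas Il7r had 0 counts in every library. Likewise Csf2ra, the binding chain for GM-CSF, had 0 counts, Csf3r had 1 count in all and Csf1r at most 5 in any library. Il1rl1, the receptor of IL-33, had 2 to 26 counts per library and Lifr 3 to 19.

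**Figure D3:**
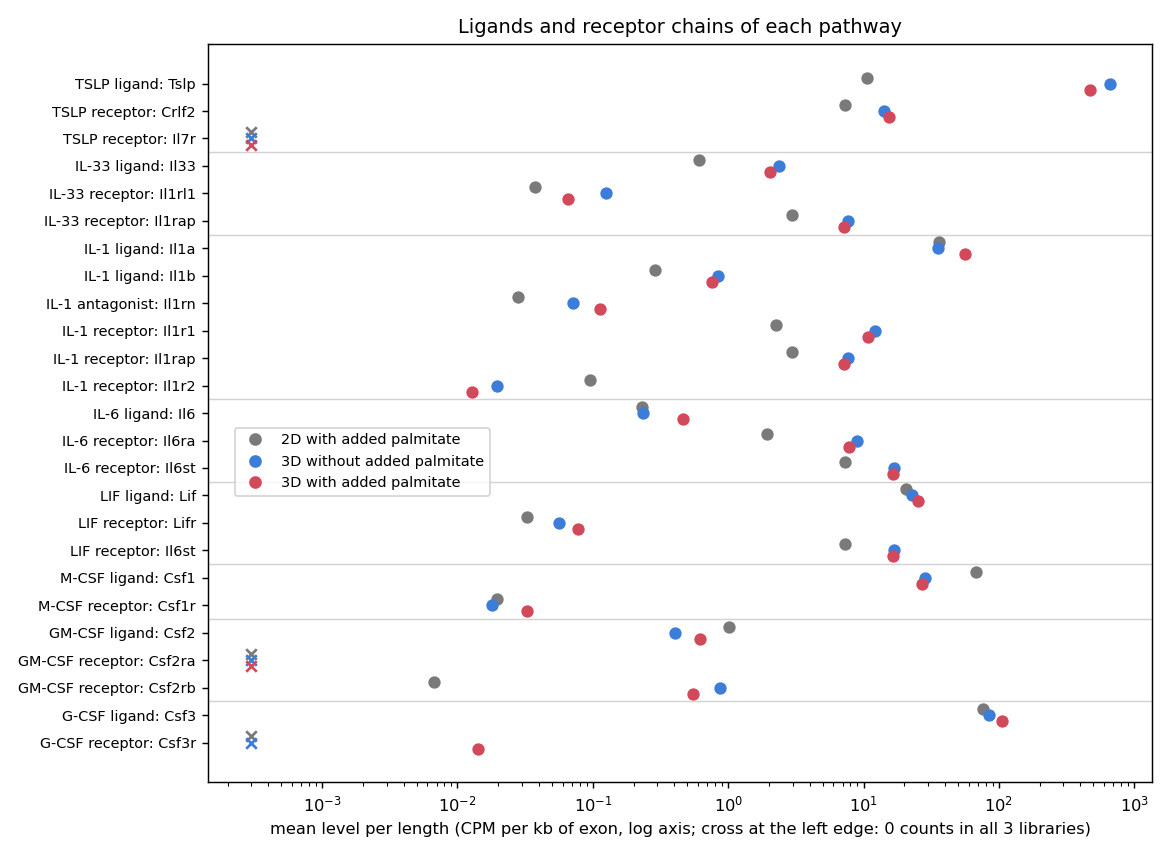
Mean level per kilobase of exon (log axis) of each ligand, the IL-1 antagonist and the receptor chains in the 3 culture groups (n = 3 libraries each); crosses at the left edge stand for 0 counts in the group. Receptor chains for IL-1 and IL-6 lie between 1.93 and 16.7 CPM per kb, apart from the decoy Il1r2, while Il7r and Csf2ra show crosses in all groups.

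Of 21 listed receptors, 13 passed the filter on low counts, and 10 of them rose in 3D over 2D, with none falling and a median log2 fold change of 1.16. Over all genes tested, 68.3% passed in either direction, 34.5% were higher, and the median was 0.01. Il1r1 rose 4.74-fold (log2 fold change 2.24, SE 0.0706, adjusted p = 2.80e-12 by edgeR) and Il6ra 4.10-fold (2.04, SE 0.0777, adjusted p = 2.10e-11). Il6st rose by 1.16 (adjusted p = 1.16e-07), or 0.66 with the GC and length trend removed. Csf2rb, the signalling chain shared by GM-CSF, IL-3 and IL-5, had 26 to 130 counts in 3D with palmitate and 0 to 2 in 2D (log2 fold change 6.31, adjusted p = 1.24e-08). The size of that change rests on 3 counts in 2D, and reads of its near-identical copy Csf2rb2 (4.63) may have been split between them. Csf2rb and Csf2rb2 passed the filter only through their 3D counts, so neither could have been counted as lower. Il1r2, which the filter removed, was lower in 3D with palmitate than in 2D without overlap (0.0245 against 0.181 CPM). Libraries of the other removed receptors overlapped. None of the 13 receptors passed for palmitate, where 4 (30.8%) had an unadjusted p under 0.05, against 17.3% of all genes. All 4 were lower with palmitate: Il1r1 (−0.20), Il6ra (−0.18), Il11ra1 (−0.50) and Csf2rb (−0.62).

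Related ligands are other members of the same cytokine families and partners of them. Of 20 listed, 16 were in the table and 11 were tested. Between 3D and 2D, 6 rose (54.5%, against 34.5% of all genes) and 1 fell, with a median log2 fold change of 0.41. Clcf1, which encodes a gp130 ligand, rose by 1.16 (adjusted p = 3.92e-07), Kitl, the stem cell factor that acts on mast cells and progenitors, by 1.87 (adjusted p = 2.97e-09), and Il18, another IL-1 family cytokine, by 1.11 (adjusted p = 1.59e-05). None of the 11 passed for palmitate.

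Of 11 tested genes of IL-1 maturation and release, 8 rose in 3D over 2D and none fell, with a median of 0.35. That is 72.7% called, near the 68.3% of all genes, of which 34.5% were higher. Casp1, the protease that matures IL-1β and IL-18, rose most (2.30, adjusted p = 6.80e-11). Of the others with the smallest p, values were highest for Dfna5, the pore-forming gasdermin E (1.26, adjusted p = 3.26e-08), and S100a13, which takes part in IL-1α export (1.01, adjusted p = 8.50e-07). Capn1, a calpain subunit of the protease family that cuts the IL-1α precursor, rose by 0.48 (adjusted p = 1.40e-05). On the same list, Nlrp3 and Nlrc4 did not pass the filter on low counts. Pycard, at 1.17 CPM in 3D with palmitate, was not called (−0.25). IL-1 receptor signalling was mixed, with 4 of 13 higher (30.8%, against 34.5% of all genes), 3 lower and a median of 0.08. Ikbkg, the regulatory subunit of the IκB kinase, rose by 1.50 (adjusted p = 4.08e-10) and the kinase Irak2 by 0.57 (adjusted p = 6.59e-05). Tab1, an adaptor of the kinase TAK1, fell by 0.59 (adjusted p = 3.66e-05). The kinase subunit Ikbkb stood at −0.27 (adjusted p = 0.000918), and at −0.58 with the GC and length trend removed. None of these genes passed for palmitate.

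JAK-STAT signalling, used by TSLP, the gp130 cytokines and the colony-stimulating factors GM-CSF and G-CSF, had 11 of 13 genes higher in 3D than in 2D and none lower, with a median of 0.74, against 34.5% higher and 33.9% lower over all genes tested. Jak2 rose by 1.98 (adjusted p = 4.74e-10), Stat3 by 0.99 (adjusted p = 1.57e-08), Tyk2 by 0.72 (adjusted p = 3.57e-07) and Pias3, an inhibitor of Stat3, by 0.69 (adjusted p = 6.21e-07). The higher genes also held Socs1 (0.74), Socs2 (0.89), Socs3 (0.53) and Cish (1.12), so the count is not a measure of signalling activity. With the GC and length trend removed, Stat3 was at 0.59 and Tyk2 at 0.40, both still past the threshold. None of the 13 passed for palmitate.

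Regulators of cytokine mRNA decay moved in both directions: 5 of 11 rose (45.5%, against 34.5% of all genes) and 4 fell, with a median of 0.24. Zfp36l2, a protein that destabilizes AU-rich mRNAs, rose by 0.97 (adjusted p = 5.37e-08), while Hnrnpd, which encodes an AU-rich element binding protein, fell by 0.95 (adjusted p = 6.26e-08). The roquin genes Rc3h1 (0.69, adjusted p = 1.28e-05) and Rc3h2 (0.41, adjusted p = 0.000147) rose as well, but with the GC and length trend removed Rc3h1 was at 0.17 and Rc3h2 at −0.05. Of 10 transcription factors of cytokine genes, 4 rose (40%, near the 34.5% of all genes) and 2 fell, against 33.9% of all genes lower, with a median of 0.14. The NF-κB subunits Nfkb2 (−0.61, adjusted p = 7.35e-07) and Relb (−0.49, adjusted p = 0.00123) were those that fell, and Egr1 (0.60, adjusted p = 0.00276) and Cebpb (0.52, adjusted p = 0.00317) were among those that rose. Egr1 was at 0.32 with the trend removed and at 0.40 without replicate 2 of 2D.

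Over all 7 lists, 48 of 82 tested genes rose and 10 fell between 3D and 2D, 58.5% higher against 34.5% of all genes tested, with a median of 0.38 against 0.01. Among the 48 were Csf2rb and Csf2rb2, which passed the filter on low counts only through 3D. For palmitate in 3D, 1 of the 82 passed, against 2.19% of all genes, and 18 (22%) had an unadjusted p under 0.05, against 17.3% of all genes. It was Nfkbiz, encoding the nuclear cofactor IκBζ that takes part in induction of Il6 and other late NF-κB targets. It measured 82.6 ± 3.51 CPM with palmitate and 68.0 ± 1.25 CPM without (log2 fold change 0.28, SE 0.0604, adjusted p = 0.0274 by edgeR), and the call was lost under 10 of 17 alternatives. Without replicate 3 of 3D with palmitate, the shallowest library, 14 of the pathway genes passed, 7 higher and 7 lower, and 14.9% of all genes.

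**Figure D4:**
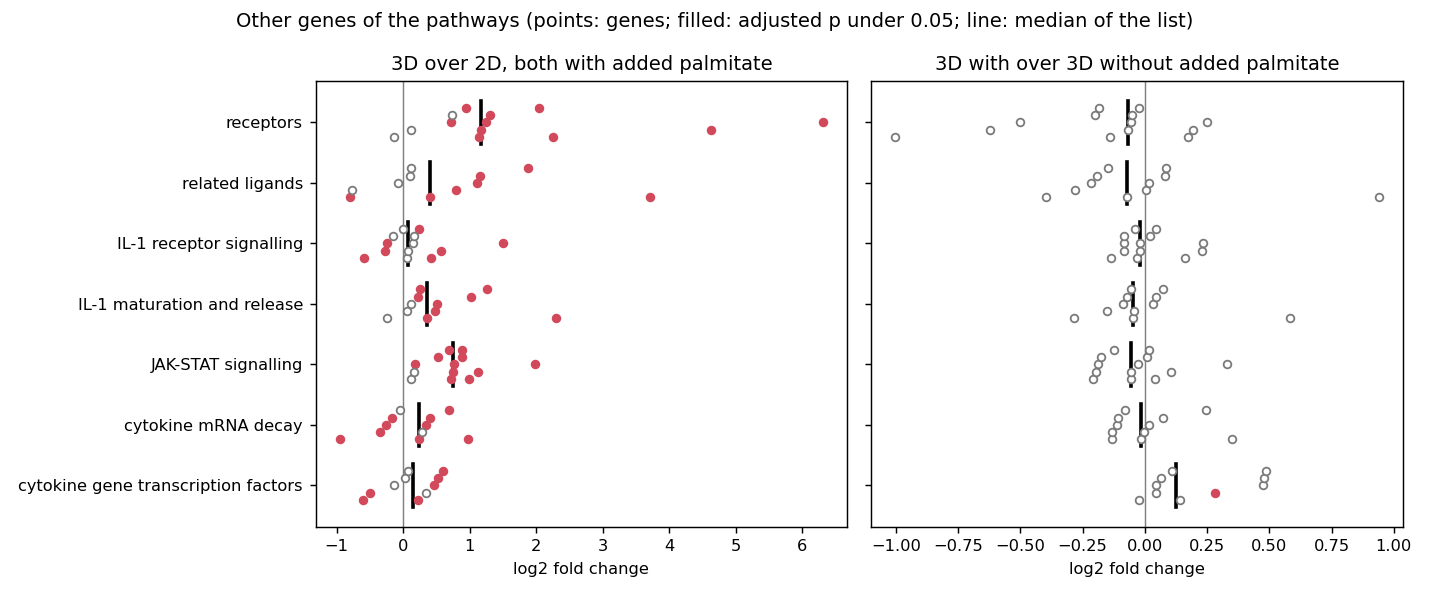
Log2 fold change (horizontal axis) of each tested gene of the 7 pathway lists for 3D over 2D with palmitate (left) and palmitate over no palmitate in 3D (right, on a narrower scale); filled points passed an adjusted p of 0.05 and black lines are list medians. Receptors (median 1.16) and JAK-STAT genes (0.74) lie mostly to the right of 0 in the left panel, and Nfkbiz is the single filled point in the right panel.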

How the data were processed

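Messenger RNA of 9 libraries was sequenced as 50 bp single-end reads after a stranded library preparation. According to the study's methods, the authors cleaned reads with fastq-mcf, checked them with FastQC 0.11.9, aligned them to GRCm38/mm10 with HISAT2 2.1.0, and deposited raw counts per gene from HTSeq-count. The annotation release and strand setting were not given in the sources used here, so reads of overlapping, antisense or near-identical genes could have been misassigned. Samples were grouped by their labels.

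Counts were fitted with edgeR 4.0.16 (R 4.3.3): genes were filtered with filterByExpr by group (minimum count 10), scaled by TMM, and tested with glmQLFit and glmQLFTest in 1 model of all 9 libraries with condition as the term. P-values were adjusted by Benjamini-Hochberg over 12575 genes, with a threshold of 0.05. CPM used the tested genes' totals times the TMM factor, and SE was |log2 fold change| over the root of F. The procedure was tested on simulated data. Positions and exon lengths came from GENCODE vM21 (24045 of 24421 genes matched to a transcript). Alternatives used DESeq2 1.42.0, other scalings and filters, fewer libraries, a replicate block and a trend on GC content and length.

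The members and lists were chosen with earlier results of these data known. Named pathway genes were, per list and comparison, at most 4 called genes with the smallest p, and the 2 genes most like each tested member. A result under this rule is not reported here. Intervals are counting error only, and the smallest library, with 6595514 counts, limits precision for low genes.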

Additional observations from a re-analysis of the deposited data

How the results depend on the processing

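The count of the 9 tested cytokine genes past the threshold was 7 to 10 for 3D over 2D where 9 or 10 were tested, 10 being reached with Il1rn tested as well, and 6 of 6 where at least 10 counts were required in every library. For palmitate it was 2 to 3. Over named cytokine genes, 279 of the recomputed values kept their direction and side of the threshold, 13 lost the call, 4 gained it and 3 changed sign; over named pathway genes the numbers were 481, 10, 0 and 1. Pathway genes called for palmitate numbered 1 in the reported fit, 0 with library size only, 6 with no low-count filter, 0 when the third group was left out, 6 with the GC and length trend removed, and 0 to 14 when single libraries were left out. That last range is set by replicate 3 of 3D with palmitate, without which 1901 rather than 275 of all genes passed. Changes of sign were Rc3h2 for 3D over 2D at −0.046 with the GC and length trend removed, and, for palmitate, Il1b at −0.37 to 0.0033 and Csf2 at −0.18 to 0.71 when single libraries were left out. Removing the GC and length trend moved the median of all genes from 0.01 to −0.14 for 3D over 2D. The causes were not tested.

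The labels do not say whether replicate numbers paired the cultures. Deviations of same-numbered libraries correlated at −0.52 to 0.34 (median −0.10, 9 pairs) and those of other libraries at −0.40 to 0.55 (18 pairs). These ranges overlap widely over few pairs, so they cannot settle whether cultures were paired. With the replicate as a block, 0 pathway genes passed for palmitate and Csf2 lost its call for 3D over 2D (−0.86). Depth limits Il1rn, Il6, Csf2 and Il1b, each with under 10 counts in at least 1 library.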
